A study of Mus musculus with 12 samples.

Results

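Mediator binding was described at 9 genes that encode transcription factors of the formative epiblast: Otx2, Pou3f1, Foxd3, Grhl2, Zic2, Zic5, Sox3, Sox4 and Sall2. They are 9 of the 21887 protein-coding genes of the gene table used. For each of 2 Mediator subunits, MED1 and MED24, the peaks of 4 libraries were merged into regions wherever they overlapped by at least 1 bp. A region was given to the gene whose span lay nearest, within 100 kb on GRCm38 (mm10). The 9 genes received 86 of 65291 MED1 regions and 93 of 66123 MED24 regions.

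The cells were E14tg2a mouse embryonic stem cells on a 129SV background, and all of them stably carried a cRAF-ErT2 cassette, a RAF kinase that 4-hydroxytamoxifen (4OHT) switches on to activate ERK. All groups grew in serum with LIF and 2 µM Chir99021, a GSK3 inhibitor, and then spent 24 h in serum and LIF with 250 nM of PD173074, an FGF receptor inhibitor. ChIP libraries were made for MED1, with an antibody to the protein, and for MED24, with an antibody to FLAG. Each was made without further treatment (0 h) and after 2 h of 250 nM 4OHT (2 h), in clones a and b, which gives 2 libraries per group and 8 in all. The 4 input samples are not analysed here. No vehicle-treated library and no library without the cassette was analysed here, so 4OHT, the 2 h in culture and ERK activation cannot be told apart. The labels do not say how the clones arose, and p-values measure only the spread between these libraries.

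Embryonic stem cells kept with LIF resemble the naive epiblast of the blastocyst. As the embryo implants, FGF signalling through ERK moves the epiblast into a formative state, in which naive genes are turned down and the cells become competent to form the germ layers and germ cells. Otx2 and Pou3f1 (also called OCT6) are early factors of that state and act at its enhancers, Foxd3 is a forkhead factor that works at enhancers during the exit from the naive state, and Grhl2 is a grainyhead factor that opens enhancers of epithelial genes. Mediator bridges enhancer-bound factors and RNA polymerase II, with MED1 in its middle module and MED24 in its tail.

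The promoter windows below are printed because they place the gene starts against the Mediator regions. Of these windows, 5 overlap, in whole or in part, a region called in all 4 MED1 libraries, and the last overlaps none. They run 5′ to 3′ on the strand of the gene, from 250 bases before to 50 bases after an annotated start, and come from RefSeq on GRCm38.p6. A window was present for 5 of the 9 genes. Of 4 Otx2 windows, the printed one is the only one in a region called in all libraries. Of the others, those starting at 48667595 and 48667459 lie in no region. The one starting at 48665060 overlaps in part a region called in 1 library of each protein. It holds an OTX match, which lies outside the region of either protein. Capitals mark matches to 11 motifs searched on both strands: TAATCC (OTX), AACNNGTT (GRHL), CAGCAGG (ZIC), TGTTTAC (FOXD), ACAANGG (SOX), ATGCAAAT (POU), CCGGAAGT (ETS), TGANTCA (AP-1), GGAATG (TEAD), CAAGGTCA (ESRRB) and GGGNGGGG (KLF), none of which contains another.
Otx2, chr14:48662685-48662984, minus strand: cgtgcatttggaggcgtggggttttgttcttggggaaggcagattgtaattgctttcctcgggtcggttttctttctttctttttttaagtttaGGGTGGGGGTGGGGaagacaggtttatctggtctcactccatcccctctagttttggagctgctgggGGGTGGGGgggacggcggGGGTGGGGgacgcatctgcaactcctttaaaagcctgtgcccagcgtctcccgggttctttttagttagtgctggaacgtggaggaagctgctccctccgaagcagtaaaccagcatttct
Foxd3, chr4:99656049-99656348, plus strand: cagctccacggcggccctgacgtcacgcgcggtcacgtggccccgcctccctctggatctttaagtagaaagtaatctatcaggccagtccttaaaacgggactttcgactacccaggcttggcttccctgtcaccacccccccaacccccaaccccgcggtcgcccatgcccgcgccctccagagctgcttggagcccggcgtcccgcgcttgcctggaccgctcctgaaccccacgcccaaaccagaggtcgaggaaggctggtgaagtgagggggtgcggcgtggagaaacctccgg
Sox4, chr13:28953650-28953949, minus strand: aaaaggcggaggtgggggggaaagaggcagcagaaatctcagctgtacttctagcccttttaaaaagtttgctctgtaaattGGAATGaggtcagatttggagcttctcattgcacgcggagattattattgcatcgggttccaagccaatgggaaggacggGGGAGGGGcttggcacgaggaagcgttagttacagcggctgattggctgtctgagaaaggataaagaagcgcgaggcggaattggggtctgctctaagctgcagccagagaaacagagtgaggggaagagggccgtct
Zic5, chr14:122465609-122465908, minus strand: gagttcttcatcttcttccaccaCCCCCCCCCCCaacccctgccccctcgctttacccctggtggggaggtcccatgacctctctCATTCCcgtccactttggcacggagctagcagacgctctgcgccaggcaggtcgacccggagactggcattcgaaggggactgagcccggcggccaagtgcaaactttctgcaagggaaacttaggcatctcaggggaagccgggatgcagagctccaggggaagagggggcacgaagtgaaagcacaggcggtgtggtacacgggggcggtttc
Sall2, chr14:52316274-52316573, minus strand: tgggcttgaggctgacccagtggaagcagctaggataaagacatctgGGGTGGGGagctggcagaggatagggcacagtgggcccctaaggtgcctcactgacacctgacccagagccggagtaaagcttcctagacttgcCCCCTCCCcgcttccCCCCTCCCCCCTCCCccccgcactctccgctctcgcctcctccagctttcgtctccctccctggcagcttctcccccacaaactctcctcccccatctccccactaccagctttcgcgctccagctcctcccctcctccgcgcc
Sall2, chr14:52328621-52328920, minus strand: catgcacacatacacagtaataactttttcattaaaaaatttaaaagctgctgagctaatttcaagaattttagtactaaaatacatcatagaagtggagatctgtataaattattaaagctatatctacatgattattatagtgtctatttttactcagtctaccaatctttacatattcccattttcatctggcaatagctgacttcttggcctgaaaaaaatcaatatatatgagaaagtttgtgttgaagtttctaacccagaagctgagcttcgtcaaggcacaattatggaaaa

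The Otx2 window holds 4 KLF matches and the first Sall2 window another 4. The Sox4 window holds a TEAD match at position -168 and a KLF match at -88 from the start, and the Zic5 window holds a TEAD match at -165 and overlapping KLF matches in a run of C. No letters of the 11 motifs were found in the Foxd3 window or in the second Sall2 window. Among 21238 promoter windows of the same length, 39.4% held the KLF letters and 13.6% the TEAD letters. The Foxd3 window had a GC content of 65.7% and 25 CpG, and the second Sall2 window 30.3% and 1 CpG, beside medians of 56.3% and 13 over all windows. Of all windows, 45% overlapped a region called in all 4 MED1 libraries and 42.2% one called in all 4 MED24 libraries, so that a start within such a region was common. A match is a description of letters and not of a bound site.

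Every value attached to a peak is the authors' own, and peaks are placed here by rank. A library percentile gives the standing of a region among all regions called in that library, with 100 as the strongest. The libraries called 36161 and 34995 MED1 regions before 4OHT (clone a first) and 41291 and 44811 at 2 h, and 39864 and 36479 MED24 regions at 0 h and 40452 and 47259 at 2 h. Because library percentiles rest on lists of unequal length, change was tested only on a common set, the regions called in all 4 libraries of a protein, with limma on normal scores of the ranks. That set held 20152 MED1 and 21529 MED24 regions, and a percentile within it is called a common-set percentile. Of the embryonic stem cell markers, 10 of 10 genes had a region called in all 4 libraries of each protein. So did 2 (MED1) and 4 (MED24) of 8 fibroblast genes, where the best library percentiles ranged from 41.4 at Thy1 to 97.6 at Col3a1 for MED1. Primitive endoderm markers had such a region at 5 of 8 genes in each protein and trophectoderm markers at 6 (MED1) and 5 (MED24) of 7 genes. A region near a marker does not show that the gene is expressed, so these counts do not test the cell label. The share over all genes is not given here. Read numbers are not in the lists, so the depth of a library is unknown.

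Over the 9 genes together, the number of regions called overlapped between times for MED1 and was lower at 2 h for MED24, while single genes differed in direction. MED1 had 47 and 48 member regions called at 0 h and 44 and 53 at 2 h; clone a went from 47 to 44 and clone b from 48 to 53. MED24 had 63 and 57 at 0 h and 53 and 56 at 2 h, and that difference of -5.5 turned to 5 under a stricter peak threshold and to 2.5 within 20 kb. As a share of all regions called in a library, member regions made up 0.13% and 0.137% at 0 h and 0.107% and 0.118% at 2 h for MED1, and 0.158% and 0.156%, then 0.131% and 0.118%, for MED24, while the lists grew longer. Regions were most numerous at Grhl2, Foxd3, Otx2 and Sox4, which together held 63 of the 86 MED1 and 72 of the 93 MED24 regions. An exact permutation test of 2 against 2 libraries cannot give a p below 0.333, so no count of calls here can pass 0.05. In both proteins, the 2 h libraries called fewer regions than both 0 h libraries at 2 of the 9 genes (Otx2 and Foxd3) and more at 2 (Grhl2 and Pou3f1). Over all genes with a region, fewer calls were seen at 8.52% for MED1 and 9.56% for MED24 and more calls at 24.0% and 22.2%. Among genes with at least 10 regions, to which Otx2, Foxd3, Grhl2 and Sox4 belong, these shares were 13.2% and 15.8% for fewer and 44.8% and 36.1% for more, so a gene such as Grhl2 with more calls was common.

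A region was counted as gained if both 2 h libraries and neither 0 h library called it, and as lost in the reverse case. Of the 86 MED1 regions, 12 (14.0%) were gained and 6 (6.98%) lost, beside 17.6% and 6.90% of all MED1 regions, so both shares were near or under the background. Of the 93 MED24 regions, 13 (14.0%) were gained and 15 (16.1%) lost, beside 16.0% and 8.83% of all MED24 regions. The lost share of MED24 stood above that of all regions but was close to the 17.4% at 10 embryonic stem cell marker genes (16.5% for MED1), and 9 of the 15 lost regions lay at Otx2 and Foxd3. The 15 became 7 under the stricter peak threshold, 9 with 20000 peaks per library and 6 within 20 kb, and the 13 gained became 8 with 20000 peaks. Within 20 kb MED1 had 7 gained and 3 lost regions. When 0 h and 2 h were set against each other inside a clone and the 2 clones averaged (a replicate block), the numbers were 21.5 gained and 20.5 lost for MED1 and 20 gained and 25.5 lost for MED24. MED1 gave 20 gained regions without 2 h clone a, and 19 or 16 lost regions without 0 h clone a or b; MED24 gave 24 lost regions without 0 h clone b, since fewer libraries then have to meet the rule.

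**Figure D1:**
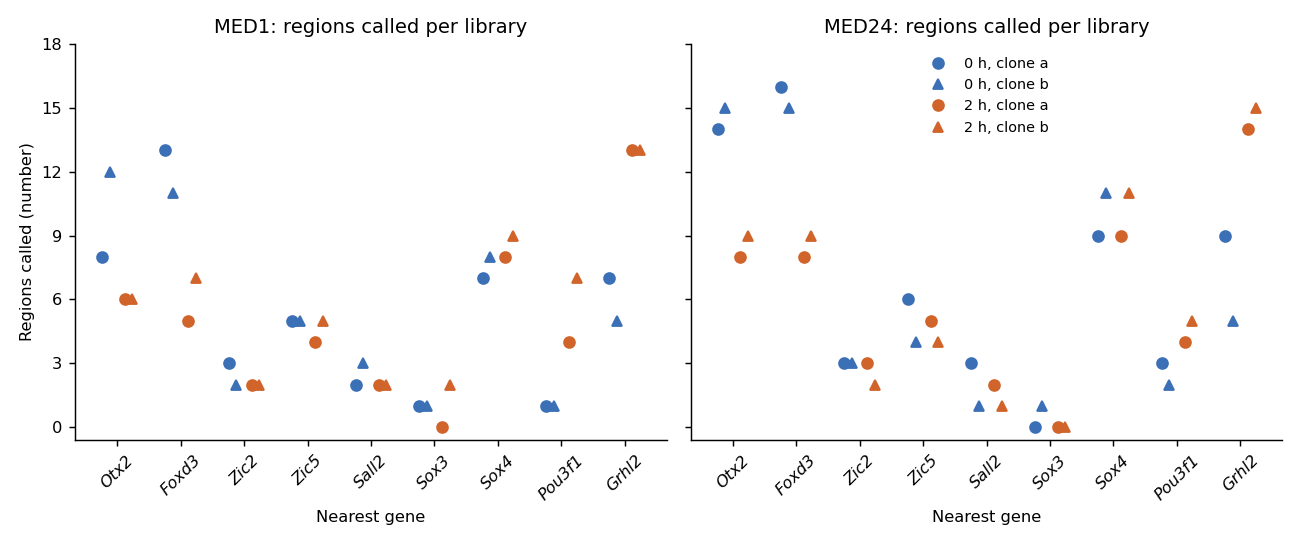
Number of regions called (vertical axis, regions) at each of the 9 genes (horizontal axis) in each library, for MED1 and MED24, with 0 h in blue, 2 h in orange, circles for clone a and triangles for clone b. At Otx2 and Foxd3 both 2 h libraries lie under both 0 h libraries in each protein, and at Grhl2 and Pou3f1 both lie above them.

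In rank, more member regions fell than rose. Of the 22 MED1 member regions called in all 4 libraries, 1 rose and 5 fell at an adjusted p under 0.05 (limma, Benjamini-Hochberg over all 20152), beside 9.70% risen and 9.03% fallen of all. Of the 28 for MED24, 2 rose and 11 fell, beside 13.5% and 14.5% of all 21529. The median shift was -0.53 normal-score units for MED1 and -0.28 for MED24, beside -0.068 and -0.0018 over all regions of the common sets. The same lean was present at the embryonic stem cell marker genes, where 5 rose and 17 fell of 46 MED1 regions (median -0.49) and 3 rose and 22 fell of 47 MED24 regions (median -0.53). At trophectoderm markers 1 rose and 3 fell of 19 for MED1 and 3 rose and 7 fell of 17 for MED24. The fall is therefore not shown to be particular to the 9 genes. Among the fallen, Otx2 held 3 of 5 in MED1 and 5 of 11 in MED24. Without the Otx2 regions, 1 rose and 2 fell of 17 for MED1, and 2 rose and 6 fell of 20 for MED24. The median shift was then -0.38 for MED1 and 0.27 for MED24. Without the Foxd3 regions it was -0.10 for MED1 and 0.07 for MED24. For MED24 the sign of the median thus turned when the regions of either gene were left out. All 6 MED1 calls were lost when the regions were ranked by the authors' fold enrichment in place of the −log10 p (adjusted p from 0.0785 to 0.618, all in the same direction). The MED24 lists hold no fold enrichment, so this alternative could not be run for MED24.

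At or above common-set percentile 95 in both clones stood 1 MED1 member region at 0 h, at Zic5, and none at 2 h. For MED24 there were 4 at 0 h and none at 2 h. Over the whole common set, whose size is the same in every library, these numbers were 787 and 820 for MED1 and 934 and 929 for MED24.

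**Figure D2:**
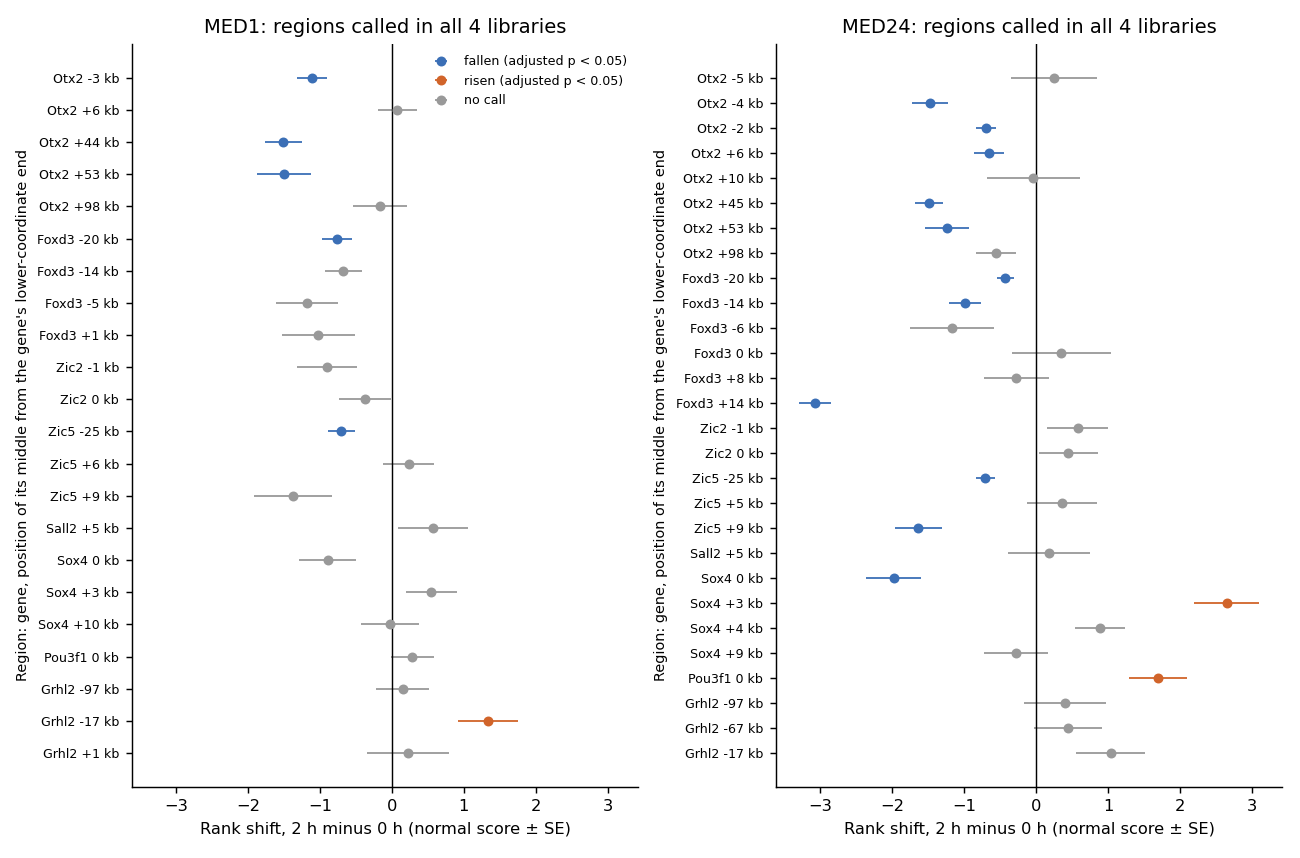
Rank shift at 2 h minus 0 h (horizontal axis, normal-score units, with the standard error as a bar) of each member region called in all 4 libraries, named by gene and by the distance of its middle from the lower-coordinate end of the gene (vertical axis), for MED1 and MED24. Fallen regions are blue and lie mostly at Otx2, Foxd3 and Zic5; risen regions are orange and lie at Grhl2, Sox4 and Pou3f1.

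Otx2 encodes a homeodomain factor required for the formative state. In both proteins, the strongest region just downstream of the gene and regions 33 to 42 kb upstream of it fell in rank after 2 h of 4OHT. The region at the printed start also fell for MED24 but did not pass the test for MED1. Otx2 lies on the minus strand of chromosome 14 (48656781 to 48667644). MED1 called 8 and 12 Otx2 regions at 0 h and 6 and 6 at 2 h, and MED24 14 and 15 at 0 h and 8 and 9 at 2 h. Both 2 h libraries lay below both 0 h libraries. No Otx2 region was gained in either protein, and the 4 lost ones were all MED24 regions. This contrast between the proteins rested on the rule: gained minus lost regions for MED1 went from 0 to -6 without 0 h clone a, to -2 without 0 h clone b and to -4 under the replicate block, and for MED24 from -4 to 0 under the stricter threshold and within 20 kb, to -1 with 20000 peaks, to -7 without 0 h clone a and to -6 without 0 h clone b or under the replicate block.

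The MED1 region chr14:48651335-48655948, 4614 bp wide and 0.833 kb downstream of the gene, had common-set percentiles of 94.2 and 95.9 at 0 h and 71.4 and 70.2 at 2 h. Both clones were lower at 2 h, and the shift was -1.11 ± 0.209 (SE; adjusted p = 0.000177). MED24 divided this stretch into 3 regions called in all libraries. Of these, chr14:48652244-48653208 had percentiles of 87.0 and 85.5 at 0 h and 29.1 and 41.4 at 2 h, a shift of -1.48 ± 0.255 (adjusted p = 0.000174). The neighbouring chr14:48653441-48656070 was among the strongest of all, with 96.9 and 98.6 at 0 h and 92.2 and 89.3 at 2 h, a shift of -0.70 ± 0.138 (adjusted p = 0.000598). The third, chr14:48651438-48652021, was weak throughout (4.05 and 7.74, then 3.80 and 18.6) and passed no test.

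Upstream of Otx2, the fall was seen in both proteins at the same places, 33.1 and 41.6 kb from the gene. A region about 86 kb upstream was called in all libraries of each protein but passed no test. For MED1 (chr14:48753959-48754635) its common-set percentiles were 37.0 and 47.8, then 37.6 and 34.2 (limma adjusted p = 0.828). For MED24 (chr14:48754032-48754638) they were 77.4 and 64.8, then 38.6 and 61.9 (limma adjusted p = 0.161). The MED1 region chr14:48700789-48701636, 33.1 kb from the gene, had common-set percentiles of 89.7 and 92.3 at 0 h and 41.3 and 45.6 at 2 h (shift -1.51 ± 0.256, adjusted p = 4.33e-05). The MED24 region over it, chr14:48700785-48701802, had 91.5 and 94.6 at 0 h and 50.7 and 49.1 at 2 h (shift -1.49 ± 0.200, adjusted p = 1.1e-05). At 41.6 kb, the MED1 region chr14:48709253-48710109 had 60.1 and 81.1 at 0 h and 27.8 and 10.2 at 2 h (shift -1.50 ± 0.377, adjusted p = 0.00391). Its MED24 counterpart chr14:48709302-48709968 had 65.7 and 85.4, then 28.1 and 32.7 (shift -1.24 ± 0.308, adjusted p = 0.0043). At the regions 33.1 and 41.6 kb upstream no 2 h value reached a 0 h value. The farther call was lost without 0 h clone b in both proteins (adjusted p = 0.089 for MED1 and 0.104 for MED24; over its other alternatives down to 0.000822 and 0.00031).

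The region over the printed Otx2 start, with its 4 KLF matches, went differently in the 2 proteins. MED1 region chr14:48662466-48663603 had common-set percentiles of 71.4 and 62.7 at 0 h and 69.1 and 70.5 at 2 h, a shift of 0.07 ± 0.268 (adjusted p = 0.9). MED24 region chr14:48662507-48663520 had 88.6 and 86.9 at 0 h and 58.6 and 79.2 at 2 h, a shift of -0.65 ± 0.210 (adjusted p = 0.0251). That MED24 call was lost without 2 h clone a (adjusted p = 0.254) and on the percentile scale (0.0868), with a lowest value of 0.0012 among its alternatives, and the difference between the proteins was not tested. The lost MED24 regions were weaker sites. Their library percentiles at 0 h were 50.1 and 28.0 (chr14:48626247-48626703), 39.0 and 31.5 (chr14:48714189-48714544), 23.6 and 22.9 (chr14:48718472-48719039), and 31.2 and 15.5 (chr14:48730107-48730324). None of the 4 lay within 20 kb of the gene.

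Foxd3 encodes a forkhead factor of embryonic stem cells, the formative epiblast and the neural crest. Its downstream flank lost or weakened several of the strongest Mediator regions of the 9 genes, and one new region appeared beside them. Foxd3 lies on the plus strand of chromosome 4 (99656299 to 99658671). MED1 called 13 and 11 Foxd3 regions at 0 h and 5 and 7 at 2 h, and MED24 called 16 and 15 at 0 h and 8 and 9 at 2 h. Both 2 h libraries again lay below both 0 h libraries. MED1 had 1 gained and 3 lost regions, and MED24 had 1 gained and 5 lost. Gained minus lost was -2 for MED1 and -4 for MED24, and it stayed below 0 in each alternative run, with -6 for MED1 without 0 h clone b or under the replicate block and -4 without 0 h clone a or 2 h clone b, and -7 for MED24 under the replicate block.

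The downstream stretch 9.7 to 17 kb past the gene held the largest shift of any member region. MED24 region chr4:99669993-99670990 stood at library percentiles of 99.4 and 98.5 at 0 h and 35.6 and 35.6 at 2 h. On the common set it went from 98.9 and 97.6 to 20.5 and 14.3, a shift of -3.07 ± 0.225 (adjusted p = 9.34e-09). In each of 6 alternatives that could test it, which leave out the stricter peak threshold and the ranking by fold enrichment, it fell (adjusted p at most 0.00295). MED1 region chr4:99670030-99671274 over it had library percentiles of 98.0 and 96.8 at 0 h, was not called in clone a at 2 h and stood at 22.0 in clone b. In MED1 it is thus neither lost nor retained by the rule.

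Just before it, MED1 region chr4:99668543-99670021 was lost, with library percentiles of 84.5 and 60.9 at 0 h, and so was MED24 region chr4:99668417-99669819, with 95.9 and 92.0. Past it, MED1 region chr4:99674756-99675789 was lost from library percentiles of 95.5 and 95.8. MED24 region chr4:99674759-99675802 at the same place stood at 97.2 and 97.3 at 0 h and was still called in clone b at 2 h, at 48.3. Between these, a region was gained in both proteins. It was called at 2 h with library percentiles of 81.1 and 73.5 in MED1 (chr4:99673577-99674144) and 51.3 and 67.1 in MED24 (chr4:99673704-99674141).

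Upstream of Foxd3 the strongest region kept a high rank. MED1 region chr4:99635598-99637369, 18.9 kb from the gene, had common-set percentiles of 98.2 and 92.9 at 0 h and 83.1 and 85.9 at 2 h (shift -0.76 ± 0.204, adjusted p = 0.00672). MED24 region chr4:99635714-99637253 had 98.6 and 97.6, then 94.8 and 95.4 (shift -0.43 ± 0.122, adjusted p = 0.0118). Both calls were lost without 0 h clone a (adjusted p = 0.166 and 0.144; over their other alternatives down to 7.48e-06 and 0.00495), and the MED24 call also on the percentile scale (0.0881). Nearer the gene, MED24 region chr4:99641662-99642407 went from 83.3 and 88.8 to 59.3 and 49.1 (shift -0.98 ± 0.222, adjusted p = 0.00203). The MED1 region there, chr4:99641313-99642423, had 75.7 and 90.8, then 63.7 and 62.7, and missed the threshold (shift -0.68 ± 0.259, adjusted p = 0.0697).

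The other Foxd3 regions were weaker. Close upstream, the MED1 region chr4:99653304-99654155 was lost from library percentiles of 32.1 and 35.9, the MED24 region chr4:99653214-99654239 from 39.6 and 22.9, and MED24 region chr4:99654414-99655034 from 12.0 and 8.76. Downstream, MED24 regions chr4:99660922-99661405 (52.7 and 49.1) and chr4:99667888-99668186 (20.5 and 42.7) were lost. At the printed start, MED1 region chr4:99655753-99658430 covered the gene with common-set percentiles of 29.3 and 37.1 at 0 h and 3.98 and 12.1 at 2 h (shift -1.02 ± 0.505, adjusted p = 0.18). The MED24 region there, chr4:99655666-99656417, was weak in all libraries (3.66 and 0.615, then 6.47 and 1.92; adjusted p = 0.757).

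**Figure D3:**
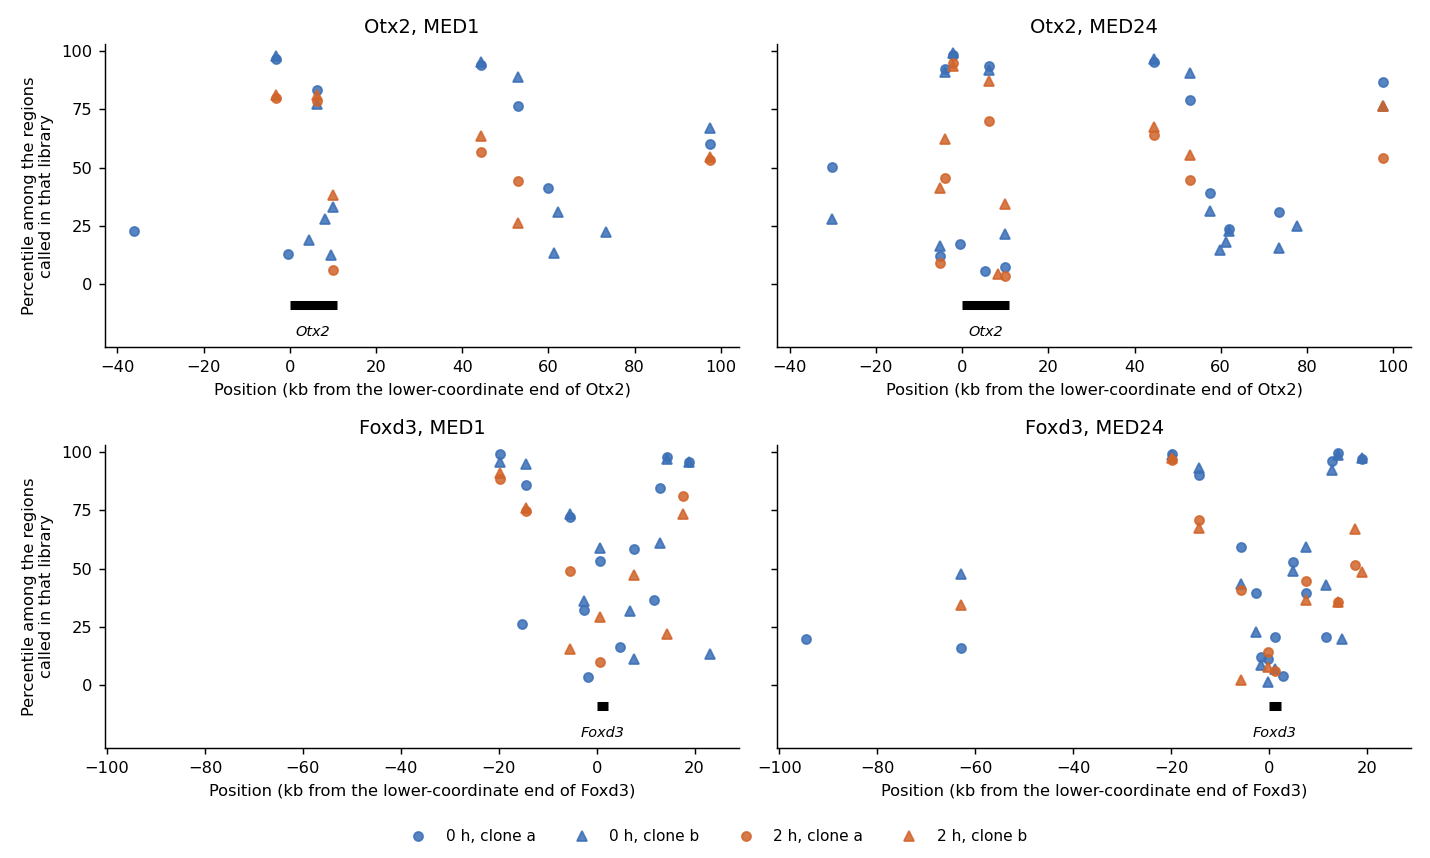
Library percentile (vertical axis, 0 to 100, strongest at the top) of each region called at Otx2 and Foxd3 against its distance in kb from the lower-coordinate end of the gene (horizontal axis), for MED1 and MED24; the black bar is the gene, blue is 0 h, orange is 2 h, circles are clone a and triangles clone b. At Foxd3 the MED24 points near 14 kb stand at 99.4 and 98.5 at 0 h and at 35.6 in both clones at 2 h.

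Pou3f1 encodes a POU-domain factor that acts with Otx2 in the formative state. Mediator regions were few at 0 h and more at 2 h, and MED24 rose at the gene itself. Pou3f1 lies on chromosome 4 (124657646 to 124660655). MED1 called 1 region in each 0 h library and 4 and 7 at 2 h, and MED24 called 3 and 2 at 0 h and 4 and 5 at 2 h. Both 2 h libraries lay above both 0 h libraries, as at 24.0% (MED1) and 22.2% (MED24) of all genes. Gained minus lost for MED1 went from 3 to 1 within 20 kb and to 6 without 2 h clone a. For MED24 it went from 1 to 3 under the stricter peak threshold. It was 2 for MED24 with 20000 peaks per library, under the replicate block, and without 0 h clone a or 2 h clone a. The MED24 region chr4:124656818-124657968, which overlaps the lower-coordinate end of the gene, had common-set percentiles of 8.09 and 8.84 at 0 h and 62.1 and 62.8 at 2 h. The shift was 1.69 ± 0.405 (adjusted p = 0.0033), and it passed in all 6 alternatives that could test it, with adjusted p at most 0.0331. These leave out the stricter peak threshold and the ranking by fold enrichment.

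The MED1 region at the same place, chr4:124656710-124658665, stood in the middle of the common set at 0 h, at 54.4 and 55.6, and stood at 69.9 and 61.9 at 2 h (shift 0.29 ± 0.293, adjusted p = 0.588). MED1 gained 3 regions at Pou3f1. One of them, 4.18 kb from the gene (chr4:124652674-124653470), was called at 2 h with library percentiles of 53.4 and 57.0, and MED24 gained the same site (chr4:124652566-124653444) at 54.1 and 59.7. The other MED1 gains were 26.5 kb from the gene (chr4:124630461-124631177, library percentiles 75.5 and 64.2) and 25.8 kb from it (chr4:124631515-124631821, 26.4 and 45.5). At the latter, MED24 was called in 1 of 2 libraries at 0 h and so was not counted as gained.

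Grhl2 encodes the grainyhead factor named above. It held the most gained regions of the 9 genes, 5 for MED1 and 6 for MED24, spread over the first 53 kb of the gene and 39 kb beyond its lower-coordinate end. Grhl2 spans chromosome 15 from 37232821 to 37363569 and is by far the longest of the genes, at 131 kb. MED1 called 7 and 5 regions at 0 h and 13 and 13 at 2 h, and MED24 called 9 and 5 at 0 h and 14 and 15 at 2 h. Both 2 h libraries lay above both 0 h libraries for each protein, while the lists as a whole also grew longer. Gained minus lost was 5 for MED1 and 4 for MED24 and was above 0 in each alternative run. For MED1 it ranged from 4 within 20 kb or without 0 h clone b to 8 without 2 h clone b. For MED24 it ranged from 2 with 20000 peaks per library to 7.5 under the replicate block. It was 7 for MED24 without 0 h clone a or 2 h clone a.

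The strongest gained regions at Grhl2 stood above percentile 90 of a library after 2 h. Outside the gene, MED1 region chr15:37192511-37193453 was called at 2 h with library percentiles of 94.1 and 83.4, and MED24 region chr15:37192667-37193393 with 93.0 and 88.5. Within the gene, MED1 region chr15:37243696-37245034 stood at 83.3 and 92.9 and MED24 region chr15:37243820-37245018 at 90.0 and 93.5. None of these was called in any 0 h library of its protein. A pair of gained sites deeper in the gene was also shared: MED1 regions chr15:37264259-37264798 (74.3 and 73.9) and chr15:37285276-37285717 (76.4 and 83.6), and MED24 regions chr15:37264381-37264761 (45.3 and 67.1) and chr15:37285247-37285671 (20.6 and 52.2). The fifth MED1 gain, chr15:37243114-37243665, was weaker, at 21.8 and 32.5.

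Near the lower-coordinate end of Grhl2, MED24 alone had gained regions by the rule, chr15:37231561-37231826 (28.0 and 52.2) and chr15:37232980-37233383 (7.92 and 19). MED24 also lost a region 94.0 kb away (chr15:37138380-37138797, from 65.9 and 56.9) and one inside the gene (chr15:37291450-37291671, from 26.8 and 22.9). Of the regions called in all 4 libraries, MED1 region chr15:37215450-37216037, 16.8 kb from the gene, rose from common-set percentiles of 8.56 and 15.2 to 62.9 and 47.8 (shift 1.33 ± 0.421, adjusted p = 0.0233). That call was lost without 0 h clone a (adjusted p = 0.0708), without 2 h clone a (0.222), without 2 h clone b (0.0536) and by fold enrichment, while its lowest value was 0.0185. The MED24 region at that place, chr15:37215477-37215978, had 3.66 and 21.4, then 44.0 and 36.1, and missed the threshold (shift 1.04 ± 0.482, adjusted p = 0.123). The MED1 region of best mean rank among those called in all 4 libraries, chr15:37135442-37136383, lay 96.4 kb away at 39.4 and 37.3, then 37.3 and 51.3.

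**Figure D4:**
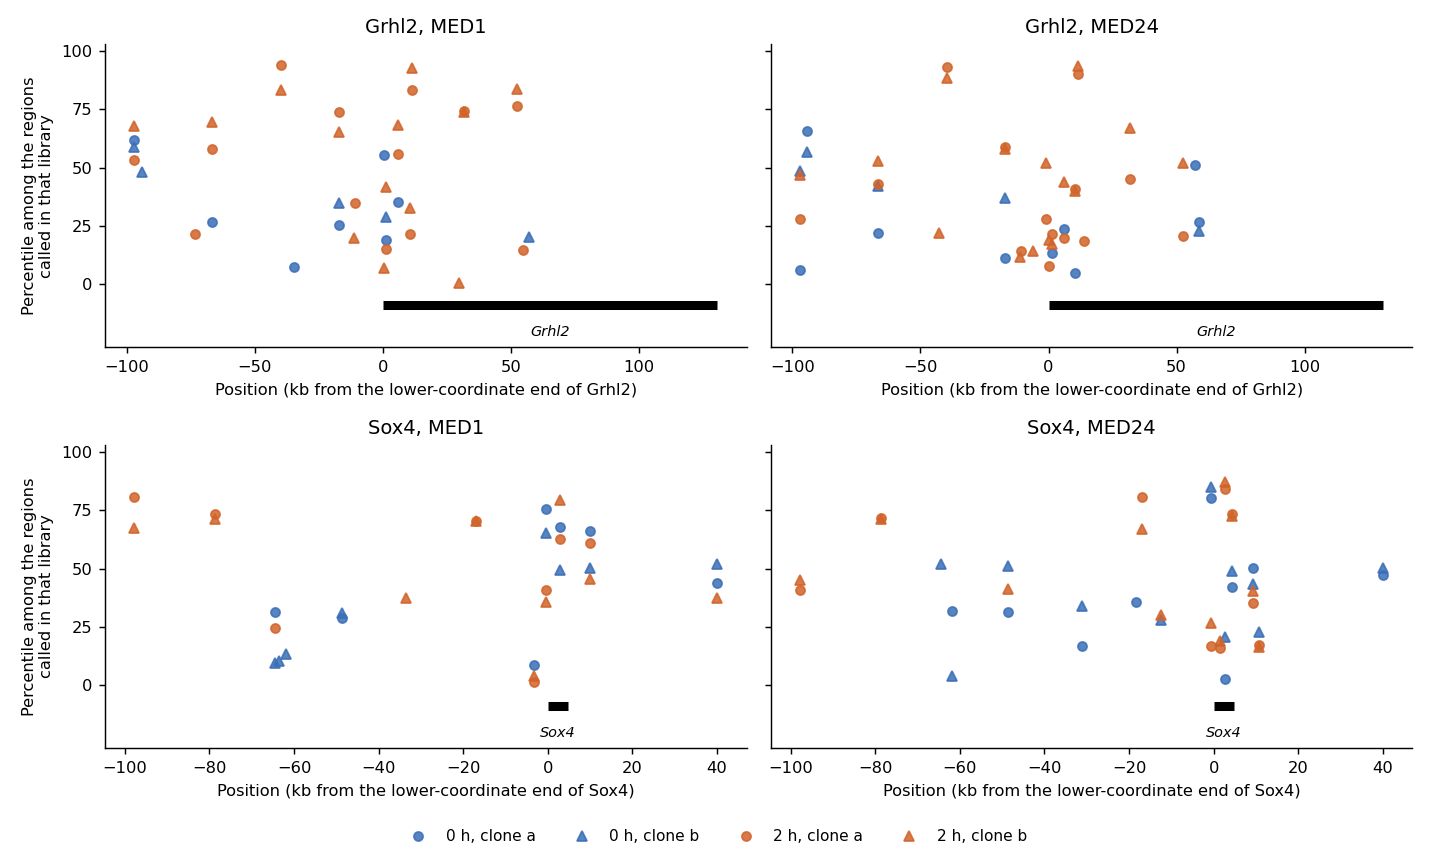
Library percentile (vertical axis) of each region called at Grhl2 and Sox4 against its distance in kb from the lower-coordinate end of the gene (horizontal axis), for MED1 and MED24, with the gene as a black bar, 0 h in blue, 2 h in orange, circles for clone a and triangles for clone b. At Grhl2 the points above percentile 80 are all from 2 h, and at Sox4 the MED24 points over the gene change places between 0 h and 2 h.

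Sox4 encodes a SOX-family factor with roles in progenitor cells. Its number of MED24 calls was the same at both times in each clone, but the regions over the gene itself moved past each other. Sox4 lies on the minus strand of chromosome 13 (28948919 to 28953699). MED24 called 9 and 11 Sox4 regions at 0 h and again 9 and 11 at 2 h, and MED1 called 7 and 8, then 8 and 9. MED24 region chr13:28950645-28952468, inside the gene, rose from common-set percentiles of 0.678 and 10.2 to 77.5 and 79.3, a shift of 2.66 ± 0.452 (adjusted p = 0.000146). MED24 region chr13:28947913-28948941, at the downstream end, fell from 67.0 and 77.1 to 7.59 and 8.98, a shift of -1.98 ± 0.383 (adjusted p = 0.000526). Neither call was lost in any of the 6 alternatives that could test it, which leave out the stricter peak threshold and the ranking by fold enrichment.

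The MED24 region over the printed Sox4 start, with its TEAD and KLF letters, is chr13:28952626-28954123. It had common-set percentiles of 20.6 and 32.1 at 0 h and 62.9 and 56.6 at 2 h, and it missed the threshold (shift 0.89 ± 0.349, adjusted p = 0.0649). MED1 covered the gene body and the start with 1 region of 4533 bp, chr13:28949635-28954167, at 47.3 and 27.2, then 48.3 and 67.9 (adjusted p = 0.33). The downstream MED1 region chr13:28947610-28949241 had 58.7 and 45.9, then 24.4 and 16.4, with both clones lower and no call (shift -0.89 ± 0.395, adjusted p = 0.125).

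Far from Sox4, 3 gained sites were shared by the proteins. MED1 region chr13:28850893-28851405 (97.5 kb away) was called at 2 h with library percentiles of 80.9 and 67.5, chr13:28869870-28870610 (78.3 kb) with 73.3 and 71.1, and chr13:28931746-28932101 (16.8 kb) with 70.5 and 70.5. The MED24 regions there were chr13:28850919-28851297 at 40.8 and 45.1, chr13:28869994-28870474 at 71.8 and 71.1, and chr13:28931725-28932089 at 80.5 and 67.1. MED24 further gained a small region inside the gene, chr13:28950246-28950582, at 15.8 and 19. The lost regions were weak or middling at 0 h: chr13:28900128-28900436 for MED1 (29.0 and 31.1), and chr13:28886766-28887271 (31.7 and 3.90), chr13:28917693-28917977 (16.8 and 34.0) and chr13:28988647-28989478 (47.2 and 50.4) for MED24.

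Zic2 and Zic5 encode zinc-finger factors and are neighbours on chromosome 14, Zic5 on the minus strand (122459160 to 122465658) and Zic2 from 122475384 to 122480328. At Zic5 a strong distal region and one facing Zic2 fell in MED24, while the calls per library hardly differed between 0 h and 2 h. MED1 called 5 and 5 Zic5 regions at 0 h and 4 and 5 at 2 h, and MED24 6 and 4, then 5 and 4. The MED1 region chr14:122433390-122434561, 24.6 kb downstream of Zic5, had common-set percentiles of 95.7 and 96.4 at 0 h and 87.3 and 83.1 at 2 h (shift -0.71 ± 0.187, adjusted p = 0.00622). MED24 there (chr14:122433612-122434621) had 98.0 and 97.4, then 88.2 and 92.0 (shift -0.70 ± 0.132, adjusted p = 0.000378). The MED1 call was lost without 2 h clone b (adjusted p = 0.0564, with 0.00343 as its lowest value).

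Beside this distal region, a site was lost in both proteins, from library percentiles of 57.4 and 41.5 in MED1 (chr14:122432398-122432975) and 65.3 and 81.8 in MED24 (chr14:122432325-122433190). Between the genes, MED24 region chr14:122467730-122469325, 2.07 kb from Zic5, had common-set percentiles of 74.2 and 79.9 at 0 h and 15.7 and 21.9 at 2 h (shift -1.64 ± 0.324, adjusted p = 0.000643). MED1 there (chr14:122467856-122469397) had clones far apart at 0 h, 15.2 and 66.9, then 8.32 and 2.46 (shift -1.38 ± 0.547, adjusted p = 0.081). The printed Zic5 start lay in MED1 region chr14:122463660-122465877 (39.4 and 44.0, then 37.6 and 64.4; adjusted p = 0.737). It also lay in the gained MED24 region chr14:122465434-122465726, which was weak, at library percentiles of 11.4 and 3.90. MED24 region chr14:122463874-122465365, within the gene, had 15.8 and 9.73, then 21.0 and 22.2, with no call (adjusted p = 0.637).

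At Zic2 no region was gained, lost or called as risen or fallen. MED1 called 3 and 2 regions at 0 h and 2 and 2 at 2 h, and MED24 called 3 and 3, then 3 and 2. MED1 region chr14:122473877-122474695, 0.689 kb from the gene, had common-set percentiles of 54.6 and 41.3 at 0 h and 14.0 and 20.1 at 2 h (shift -0.91 ± 0.415, adjusted p = 0.142). MED24 region chr14:122474198-122474731 had 25 and 14.6, then 41.8 and 35.6 (shift 0.58 ± 0.420, adjusted p = 0.346). The region that overlaps the lower-coordinate end of Zic2 had 48.0 and 51.4, then 26.8 and 43.9 in MED1 (chr14:122474788-122476053, adjusted p = 0.557) and 18.5 and 28.1, then 31.3 and 46.0 in MED24 (chr14:122474773-122475834, adjusted p = 0.47). In both clones the MED1 values were lower at 2 h and the MED24 values higher, with neither past the threshold.

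**Figure D5:**
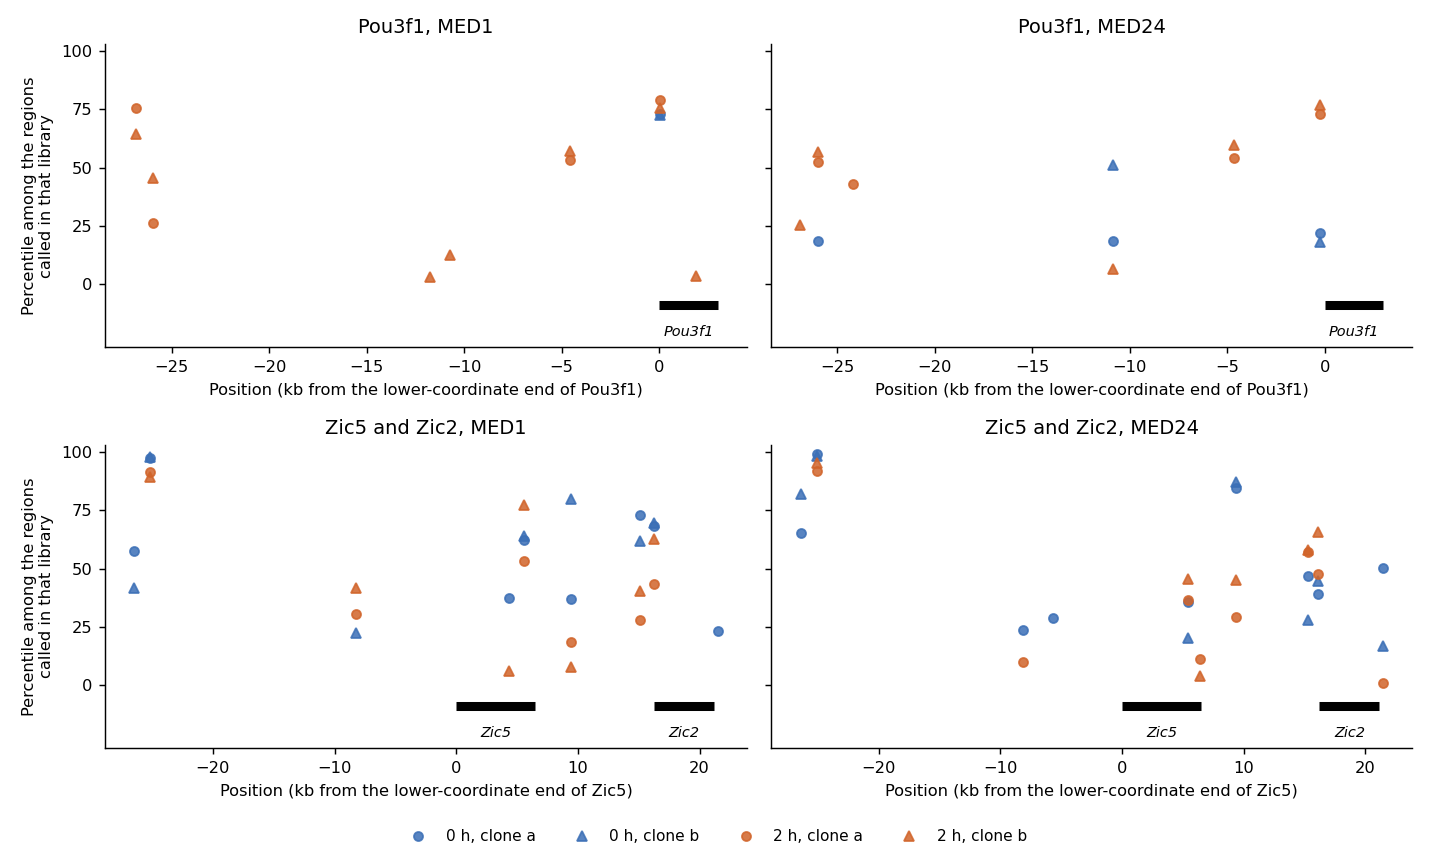
Library percentile (vertical axis) of each region called at Pou3f1 and at Zic5 and Zic2 against the distance in kb from the lower-coordinate end of the gene (horizontal axis), for MED1 and MED24, with genes as black bars, 0 h in blue, 2 h in orange, circles for clone a and triangles for clone b. The MED24 points at the end of Pou3f1 stand at 21.8 and 18.3 at 0 h and at 72.9 and 76.8 at 2 h.

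Sox3, an X-linked relative of Sox2 active in the epiblast and neural progenitors, had next to no Mediator regions. MED1 called 1 region in each 0 h library, none in 2 h clone a and 2 in 2 h clone b, and MED24 called 1 region in 0 h clone b alone. The lost MED1 region chrX:60820870-60821112 lay 70.3 kb from the gene (60891366 to 60893430), at library percentiles of 50.7 and 25.3 at 0 h. The 2 MED1 regions inside the gene were called in 2 h clone b only, both at percentile 6.02. The sign of gained minus lost regions at Sox3 turned from -1 to 1 without 2 h clone a, the library with no call.

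Sall2 encodes a spalt-like zinc-finger factor. It had 4 regions in each protein and none gained or lost. One covered the start of the first printed Sall2 window, ended short of its 4 KLF matches, and was called in all 8 libraries at low ranks. MED1 region chr14:52315717-52316334 had common-set percentiles of 12.4 and 11.8 at 0 h and 22.5 and 33.1 at 2 h (shift 0.57 ± 0.486, adjusted p = 0.492). MED24 region chr14:52315858-52316349 had 6.03 and 7.74, then 6.47 and 13.5 (adjusted p = 0.855). The other printed Sall2 start, with 1 CpG in its window, lay in no region of any library.

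Overlap of the 2 proteins at member sites was near that over all regions. Of the 86 MED1 regions, 69 (80.2%) overlapped a MED24 region, and of the 93 MED24 regions, 76 (81.7%) overlapped a MED1 region, beside 77.5% and 78.4% of all. Of the gains and losses, 9 of the 12 MED1 gains (75%) lay on a MED24 gain, which is 9 of the 13 MED24 gains (69.2%), while 3 of the 6 MED1 losses (50%) lay on a MED24 loss and 3 of the 15 MED24 losses (20%) on a MED1 loss. Over all regions these shares were 62.0% and 67.6% for gains and 44.5% and 34.3% for losses. No member region gained in one protein overlapped a region lost in the other. Such overlaps were rare over all regions, at 6 of 11484 MED1 gains and 11 of 4508 MED1 losses. Most member regions lay in or within 10 kb of the gene. More than 10 kb from the gene span lay 40 of 86 MED1 regions (46.5%) and 43 of 93 MED24 regions (46.2%). Among all regions within 100 kb of a gene, as member regions are by rule, these shares were 21.2% and 22.4%. They were 27.8% and 29.6% with regions farther away included, and 52.1% and 52.9% at the 20 relatives of the members described next. The nearest gene is a rule of position and does not show which gene a region serves.

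Other genes of the same state and relatives of the members gave a comparison. At 16 further formative genes, 18 of 142 MED1 regions were gained and 10 lost, and 11 rose and 6 fell of 50 called in all libraries. For MED24, 19 of 138 were gained and 13 lost, and 9 rose and 8 fell of 56. Among them Etv4, an ETS factor downstream of ERK, had 3 MED1 and 4 MED24 gains, and Lef1, a factor of the Wnt pathway, had 1 and 4. Etv4 and Lef1 had no loss. The median shift of this list was 0.06 for MED1 and -0.11 for MED24.

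At 20 relatives of the members, 24 of 163 MED1 regions were gained and 9 lost, with 6 risen and 8 fallen of 53, and 25 of 153 MED24 regions were gained and 14 lost, with 8 risen and 14 fallen of 50. Sall1 held the most, with 5 gains and 3 losses of 35 MED1 regions and 6 and 6 of 40 MED24 regions. Grhl3, a grainyhead relative of Grhl2, had 3 and 4 gains with 1 loss in each protein, Sox1 had 2 and 4 with 1 loss in each, and Sox2 had 4 and 2 with 1 and 3 losses. At least 10 regions in each protein were found at 938 genes, members included. Each such member was set against the non-members among them, leaving out genes with Gm-number, Rik or LOC symbols. The measure was the share of gained, lost and retained regions in both proteins (6 percentages). The genes closest to Otx2 were Zbtb44, at a Euclidean distance of 8.42 percentage points, and Sulf2 (10.4). For Foxd3 they were H2al2a (9.77) and Tiparp (10.5), for Grhl2 Pitpnc1 (8.08) and Gfod1 (8.39), and for Sox4 Dst (9.09) and Tcim (9.64).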

How the data were processed

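Peak lists of 8 ChIP-seq libraries (MED1 and FLAG-MED24, 0 h and 2 h, clones a and b) were used. Samples were grouped by their titles. The submitters' processing notes name Bowtie2, MACS2, bedtools and the mm10 build, with versions not given in the sources used here. The deposited MED1 lists give each peak's score, its fold enrichment and its −log10 p-value and q-value as the authors' peak caller wrote them. The deposited MED24 lists give the authors' score only, whose scale they do not state. MED24 peak names carry FLAG and a folder name of EP300; the labels' MED24 was followed. Lists were made per library and not on pooled samples, per the labels. The lowest score in every list was 20. They hold no read numbers, so the depth is unknown, and precision is limited by the 2 clones per group.

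All autosomes (1 to 19), X and Y were kept, and overlapping peaks were merged per protein. A region took its strongest peak's −log10 p (MED1) or score (MED24) as rank value, with tied regions given their mean rank. Genes came from a RefSeq table of GRCm38.p6. Ranks of regions called in all 4 libraries were turned to normal scores and fitted with limma 3.58.1 (trend, robust) in R 4.3.3, with Benjamini-Hochberg adjustment over all regions and a threshold of 0.05; the fit was tested on simulated data. Alternatives were equally long lists of 20000 peaks, a stricter threshold (−log10 q of 10, or a score of 100), assignment within 20 kb, windows of 250 bases around peak centres, percentiles, ranking by fold, leaving out each library and a clone block. Libraries pair by clone letter; same-clone deviations correlated at -0.00544 (MED1) and -0.00656 (MED24). Members and lists were chosen with earlier results of these data known. Named were all members, each gained or lost region, regions called by limma, those of best mean rank or largest shift in both clones, and listed genes with at least 4 gained or lost regions, of which 1 is not reported here. Pou3f1, Grhl2, Zic2 and Sox3 have no entry in the promoter table.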

Additional observations from a re-analysis of the deposited data

Results flagged for a closer look

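At 3 of 24 member pairs of overlapping regions called in all libraries of both proteins (12.5%, beside 7.35% of 17416 such pairs over all regions), at Foxd3 and Zic2, MED1 and MED24 moved in opposite directions in both clones, which is why they are listed; the difference between the proteins was not tested, and none of the shifts passed the threshold on its own. At the Foxd3 gene, MED1 region chr4:99655753-99658430 shifted by -25.4 and -25.0 common-set percentile points in clones a and b and the overlapping MED24 region by 2.81 and 1.30, a difference of 27.2 between the mean shifts. The MED24 region there is small and covers the start of the gene, while the MED1 region spans the gene. That MED24 region stood near the bottom of its common set, at percentiles of 3.66 and 0.615 at 0 h and 6.47 and 1.92 at 2 h. It thus had little room to fall. Just outside Zic2, MED1 region chr14:122473877-122474695 shifted by -40.6 and -21.2 and MED24 by 16.8 and 21.0, a difference of 49.8. At the lower-coordinate end of Zic2, MED1 region chr14:122474788-122476053 shifted by -21.2 and -7.53 and MED24 by 12.8 and 18, a difference of 29.7. The 2 proteins were ranked by different values of the authors, −log10 p for MED1 and a score for MED24, and in separate common sets; what part this has in the differences was not tested.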

How the results depend on the processing

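Counts of gained and lost regions moved with the peak threshold, the list length, the distance of assignment, the replicate block and single libraries. Within 20 kb, MED1 had 7 gained, 3 lost and 2 fallen regions and MED24 6 lost. Under the replicate block (counts within each clone, averaged) MED1 had 21.5 gained and 20.5 lost and MED24 20 and 25.5, while the limma block on clone ended no call. With 20000 peaks per library MED24 had 8 gained and 9 lost regions, and under the stricter threshold 7 lost and 1 risen, and MED1 none risen (limma; also none at an unadjusted p under 0.05), with 13 MED1 and 10 MED24 regions left to test. By fold enrichment limma called 0 MED1 regions risen and 0 fallen (1 and 4 at an unadjusted p under 0.05). The MED24 difference in regions called per library, -5.5, reversed to 5 under the stricter threshold and to 2.5 within 20 kb; the MED1 difference, 1, reversed to -3.5 without 2 h clone b. Leaving out each library in turn gave MED1 15 to 20 gained, 7 to 19 lost, 0 to 1 risen (0 without either 2 h library; 0 or 1 at an unadjusted p under 0.05) and -3.5 to 5.5 for the difference in calls, MED24 17 to 24 lost, and Sox3 -1 to 1 for gained minus lost in MED1. The cause was not tested, except that fewer libraries or regions enter by construction. Assignment by the nearest start site was not run, since the promoter table lacks 4 of the 9 members. Depth is unknown, so a missing call may be a weak one.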
